A study of Homo sapiens with 12 samples.

Results

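RNA levels of 10 genes of translesion DNA synthesis were compared between HCT116, a human colorectal carcinoma cell line, and HCT116oxR, a line derived from it that tolerates oxaliplatin. They were taken by symbol from the deposited gene table, where all 10 were found among 54261 entries: POLH, POLI, POLK and REV1, REV3L and MAD2L2, POLQ and POLN, RAD18 and PRIMPOL. Every one had enough counts to be tested. The parental control cells are HCT116 as purchased. HCT116oxR cells came from the same stock by growth in oxaliplatin raised in steps from 0.1 µmol/L to 5 µmol/L, the last step being held for 1 year. Each line gave 3 total RNA libraries from cultures that were grown and collected separately, so 6 of the 12 libraries of the series were used. All HCT116oxR libraries come from 1 selected line, and a p-value here measures the spread between cultures of that line and of its parent, not between resistant lines derived independently. The labels do not say whether the drug was present when the cells were collected.

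Oxaliplatin joins neighbouring bases of a DNA strand through platinum, and such adducts stall the replicative polymerases. Translesion synthesis lets replication pass: the ubiquitin ligase RAD18, with its partner enzyme RAD6 (encoded by UBE2A and UBE2B), attaches ubiquitin to the sliding clamp PCNA, and the modified clamp recruits polymerases with open active sites. A Y-family enzyme such as polymerase eta inserts a base opposite the damage, REV1 serves as a scaffold, and polymerase zeta, built on REV3L and MAD2L2, extends the distorted primer end. The price of this tolerance is a higher error rate, and polymerase eta and polymerase zeta in particular are known for bypass of platinum crosslinks.

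Total counts per library ran from 11950069 to 13558077, and libraries of the same line resembled each other more (correlation across genes, on log2 CPM, of 0.987 to 0.989 by Pearson's r) than libraries of different lines (0.955 to 0.958). CPM, the share of a library's counts that a gene takes, is scaled by TMM factors. Among 12 colorectal epithelial markers, 6 were at 10 CPM or more in every library (EPCAM, CDH1, KRT8, KRT18, KRT19 and CDX2), while VIL1, CDX1, CDH17 and GPA33 stayed under 1 CPM. Summed and scaled by library totals, these 12 markers stood at 3062 to 3171 CPM in HCT116 and 3701 to 3782 CPM in HCT116oxR. Of 12 markers of other cell types, COL1A1 alone reached 10 CPM in all libraries, and the leukocyte genes PTPRC and CD3E had 0 counts. CD68, also on that list, was not absent, with means of 11.8 CPM in HCT116 and 5.57 CPM in HCT116oxR and 62 to 168 counts per library. The sum of that list was 71.97 to 86.2 CPM in HCT116 and 58.6 to 67.3 CPM in HCT116oxR, and its part in the results below was not tested.

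Stretches before the annotated starts of POLI and POLH, which rose, and of REV3L and POLQ, which fell, are shown so that the upstream sequences of genes moving in opposite directions can be compared. They are RefSeq promoter sequences on GRCh38.p14, printed 5′ to 3′ on the strand of the gene as far as the annotated gene span, with capitals at the matches of 10 short motifs on either strand. POLI lies on the plus strand at chr18:54269324-54269478, POLH on the plus strand at chr6:43575935-43576184, REV3L on the minus strand at chr6:111483712-111483961 and POLQ on the minus strand at chr3:121545989-121546238.
POLI: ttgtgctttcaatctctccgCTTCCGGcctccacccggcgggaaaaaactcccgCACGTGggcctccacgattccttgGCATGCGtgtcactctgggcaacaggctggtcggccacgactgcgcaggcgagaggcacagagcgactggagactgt
POLH: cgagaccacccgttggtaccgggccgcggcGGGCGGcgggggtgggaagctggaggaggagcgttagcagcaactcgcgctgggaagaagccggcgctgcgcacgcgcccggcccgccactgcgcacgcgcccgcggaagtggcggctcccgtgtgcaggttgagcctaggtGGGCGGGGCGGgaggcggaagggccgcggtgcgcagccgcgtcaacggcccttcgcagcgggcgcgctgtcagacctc
REV3L: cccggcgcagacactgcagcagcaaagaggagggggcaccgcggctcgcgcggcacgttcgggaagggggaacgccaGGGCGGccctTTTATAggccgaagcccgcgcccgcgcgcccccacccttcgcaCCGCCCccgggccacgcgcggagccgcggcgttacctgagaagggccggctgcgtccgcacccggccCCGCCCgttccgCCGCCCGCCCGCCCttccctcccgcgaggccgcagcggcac
POLQ: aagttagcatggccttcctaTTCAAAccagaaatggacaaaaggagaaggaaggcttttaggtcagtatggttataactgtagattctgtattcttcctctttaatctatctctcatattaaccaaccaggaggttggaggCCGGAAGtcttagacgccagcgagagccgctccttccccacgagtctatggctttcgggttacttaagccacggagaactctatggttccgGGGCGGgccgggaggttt
The motifs were the GC box GGGCGG, the CCAAT box CCAAT, the CHR element TTTGAA of cell cycle promoters, 2 forms of the E2F site (TTGGCGC and TTCGCGC), the NRF1 core GCATGCG, the ETS core CCGGAAG, the CRE core TGACGT, the E-box CACGTG and the TATA box TATAAA. Windows of 250 bases before each start were searched, which gave 12 windows for the 10 genes, and 35116 windows over all genes. GC content of these 12 windows was 48.4% for POLQ, 56.8% for RAD18 and 65.6% to 81.6% for the rest, beside a median of 58.0% over all windows. Its part in the shares of the GC box was not tested. A GC box, whose letters are all G or C, was present in 11 of these 12 windows, where 42.6% of all windows hold one. The exception was the window of POLI. That window held the ETS core, the E-box and the NRF1 core instead, which occur in 8.52%, 6.35% and 3.39% of all windows. The ETS core was also found before RAD18 and POLQ, and the NRF1 core before RAD18 and in 1 of 2 windows of MAD2L2. An E-box was also present in the window of REV1, which fell. REV3L, with 6 GC boxes in the window shown and 3 in its other one and with the only TATA box among the 12 windows, and POLH, with 3 GC boxes in its single window, moved in opposite directions, so the GC box did not separate genes that rose from genes that fell. These matches describe letters only, since binding was not measured.

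The comparison asked which components of this pathway have RNA levels that differ between the drug-selected line and its parent. POLI, MAD2L2 and POLH rose in HCT116oxR and REV3L, POLQ and REV1 fell, all by less than 2-fold, while RAD18, PRIMPOL, POLK and POLN did not pass the test. Thus 3 of 10 genes were higher and 3 lower (edgeR quasi-likelihood test, Benjamini-Hochberg adjusted p under 0.05 over 17511 genes). Among all genes tested, 22.3% were higher and 21.8% lower, or 44.1% in either direction, so calls in 6 of 10 genes are not far from the background share. The libraries of the lines did not overlap for the same 6 genes, against 50.5% of all genes tested. The median log2 fold change of the 10 genes was -0.002, beside -0.001 over all genes tested, and the median size of the change without its sign was 0.163, beside 0.269 over all genes. A change of 2-fold or more was seen in 9.22% of tested genes and in 0 of these 10.

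**Figure D1:**
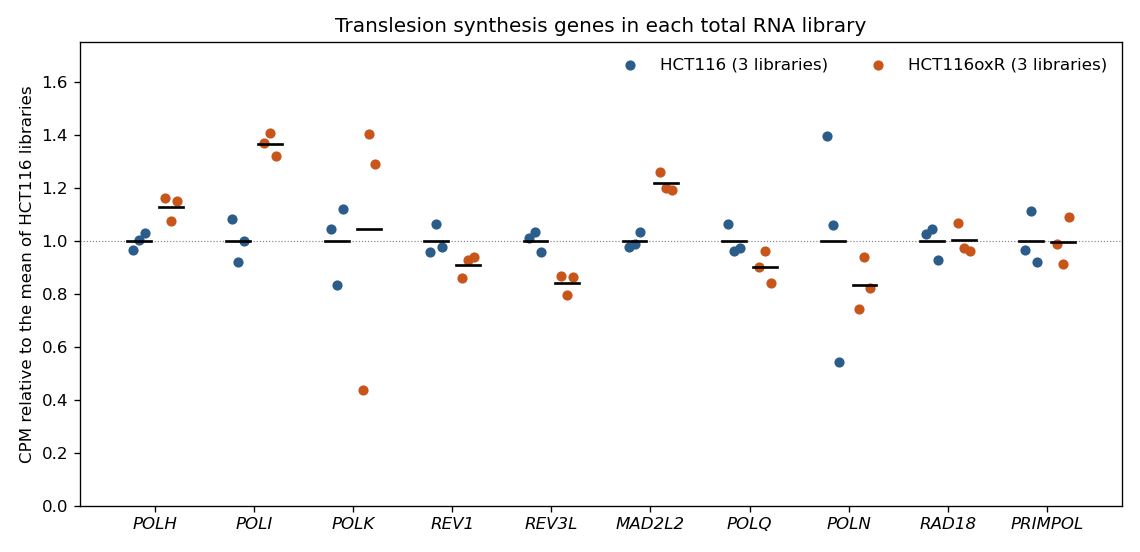
TMM-scaled CPM of each gene in each total RNA library, divided by the mean of the 3 HCT116 libraries of that gene, with black lines at the mean of each line. The 3 HCT116oxR points lie above all HCT116 points for POLH, POLI and MAD2L2 and below them for REV1, REV3L and POLQ, while POLK and POLN scatter most.

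POLI encodes polymerase iota, a Y-family enzyme known for its unusual base choice opposite template T and for inserting bases opposite damaged templates. Its level was 39.2, 33.4 and 36.3 CPM in the HCT116 libraries and 49.8, 51.1 and 47.9 CPM in the HCT116oxR libraries. All HCT116oxR libraries were above all HCT116 libraries. The log2 fold change was 0.45 ± 0.08 (SE, n = 3 per line), a 1.36-fold rise with a 95% interval of 1.23 to 1.52 (adjusted p = 4.12e-07). It was the largest change among the 10 genes, though 30.7% of all genes tested changed by more. It was also the only member of the group to pass when the test asked for more than a 1.2-fold change. The gene lies on chromosome 18 from 54269479 to 54321266, where its first 427 bases overlap the lncRNA LOC124904307, which has no matched entry in the count table.

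POLH encodes polymerase eta, the Y-family enzyme whose loss causes the variant form of xeroderma pigmentosum and which can insert bases opposite platinum crosslinks. It stood at 87.3, 90.7 and 93.2 CPM in HCT116 and at 105.2, 97.2 and 104.0 CPM in HCT116oxR, with no overlap. The mean rose from 90.4 ± 2.98 to 102.2 ± 4.33 CPM (SD, n = 3), a log2 fold change of 0.18 ± 0.05 (SE, adjusted p = 0.00434). In percent this was a rise of 13.0%, with an interval of 4.97% to 21.7%. The last 30 bases of its span on chromosome 6 overlap GTPBP2, which moved the other way, from 127.7 to 89.5 CPM (-0.51 ± 0.05, adjusted p = 3.10e-16).

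REV1, a Y-family deoxycytidyl transferase whose C-terminal part binds the other polymerases, was at 90.8, 100.6 and 92.4 CPM in HCT116 and at 81.3, 87.7 and 88.8 CPM in HCT116oxR. Its libraries did not overlap, but the gap between the nearest ones was small. The log2 fold change was -0.14 ± 0.06 (adjusted p = 0.0360), a fall of 9.11% with an interval from 1.87% to 15.8%. This call did not hold without HCT116 replicate 2 (-0.09, adjusted p = 0.249), without HCT116oxR replicate 1 (-0.10, adjusted p = 0.217) or with upper quartile scaling (-0.11, adjusted p = 0.0962). The end of REV1 on chromosome 2 overlaps EIF5B, a translation factor gene, over 850 bases, and EIF5B fell from 201.0 to 182.7 CPM (-0.14 ± 0.04, adjusted p = 0.00381).

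POLK, which encodes polymerase kappa, the Y-family member related to bacterial DinB, was near the lower limit of counting. It had 14, 10 and 14 counts in HCT116 and 6, 19 and 16 in HCT116oxR, and its libraries overlapped. Since the counting method is not given, a low level of the transcript and reads lost in counting cannot be told apart here. The log2 fold change of 0.05 ± 0.48 had an interval from -0.90 to 1.00, which covers folds from 0.537 to 2.00 (adjusted p = 0.944). The start of POLK overlaps COL4A3BP (now named CERT1) over 1208 bases, which had 274 to 357 counts in HCT116 and 370 to 396 in HCT116oxR (0.22 ± 0.10, adjusted p = 0.0502). The pseudogene RNU7-175P, inside POLK, had 0 counts in every library.

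**Figure D2:**
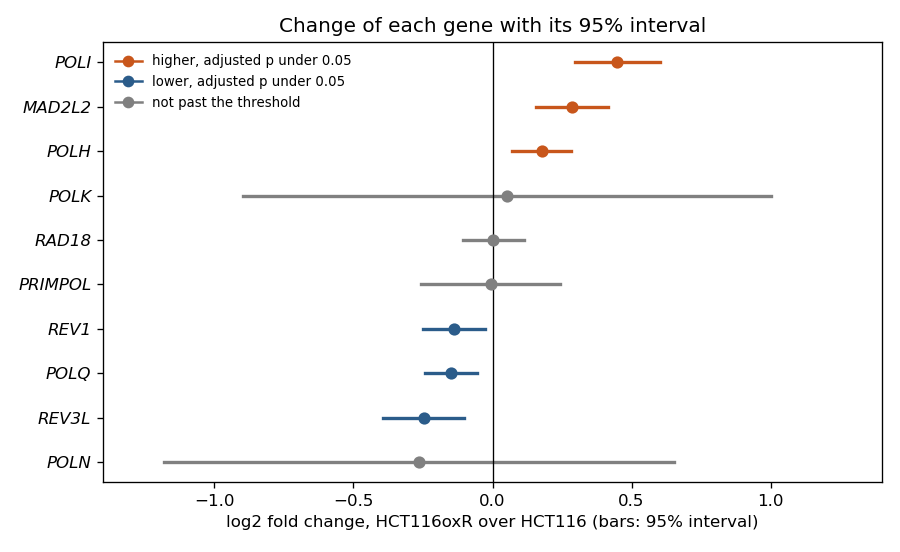
Log2 fold change of HCT116oxR over HCT116 for each gene, with bars for the 95% interval and colours for the test. The intervals of POLI, MAD2L2 and POLH lie above 0 and those of REV1, POLQ and REV3L below it, and POLK and POLN have the widest intervals.

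Both subunits that define polymerase zeta changed, in opposite directions. REV3L, the large B-family catalytic subunit, had 51.3, 52.6 and 48.6 CPM in HCT116 and 44.1, 40.4 and 44.0 CPM in HCT116oxR. Every HCT116oxR library was lower, with a log2 fold change of -0.25 ± 0.07 (adjusted p = 0.00355), a fall of 15.8% with an interval from 6.77% to 23.9%. The antisense RNA TRAF3IP2-AS1 overlaps the start of REV3L over 240 bases and had 21 to 28 counts in HCT116 and 13 to 26 in HCT116oxR (-0.49 ± 0.39, adjusted p = 0.332). The pseudogenes FCF1P5 and BRD7P4 inside REV3L had at most 8 and 2 counts in any library. MAD2L2 encodes REV7, a HORMA-domain protein that holds REV3L and REV1 together and that also serves in the shieldin complex, which limits resection of DNA ends. It was at 52.8, 53.4 and 55.8 CPM in HCT116 and at 68.1, 64.8 and 64.4 CPM in HCT116oxR, again without overlap. MAD2L2 thus rose 1.22-fold (0.28 ± 0.07, adjusted p = 1.37e-04), with an interval of 1.11 to 1.33.

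The ratio of MAD2L2 to REV3L counts within a library needs no scaling between libraries. It was 1.03, 1.02 and 1.15 in HCT116 and 1.54, 1.61 and 1.46 in HCT116oxR. The mean ratio went from 1.06 ± 0.0717 to 1.54 ± 0.0718 (SD, n = 3), 1.45 times as high. The lines could not overlap here, since every HCT116oxR library was already higher for MAD2L2 and lower for REV3L. Their separation by this ratio is thus no further evidence. These ratios were chosen after the values of both genes were seen and carry no test, and since counts depend on transcript length, a ratio of 1 does not mean equal numbers of molecules. The ratio of POLI to POLH counts went from 0.402 ± 0.0422 to 0.486 ± 0.0346, also without overlap, whereas REV1 to REV3L stood at 1.86 ± 0.0794 and 2.01 ± 0.166 with libraries that overlapped. MAD2L2 shares 5196 bases of its span on chromosome 1 with DRAXIN, a gene of axon guidance with 14 to 22 counts in HCT116 and 42 to 52 in HCT116oxR (1.34 ± 0.32, adjusted p = 2.55e-04). The use of strand in counting is not given, so reads in the stretches shared by these genes cannot be told apart. MAD2L2 itself had 635 to 700 counts in HCT116 and 790 to 923 in HCT116oxR.

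**Figure D3:**
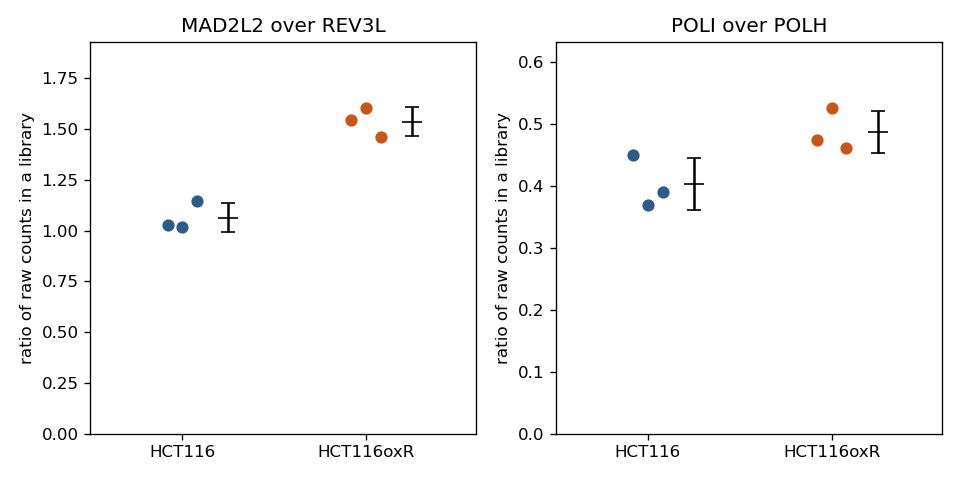
Ratio of raw counts within each library for MAD2L2 over REV3L (left) and POLI over POLH (right), with points for libraries and black bars for the mean and SD of 3 libraries. The MAD2L2 ratio lies between 1.02 and 1.15 in HCT116 and between 1.46 and 1.61 in HCT116oxR.

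The A-family enzymes were represented by POLQ and POLN. POLQ encodes polymerase theta, a helicase and polymerase best known for end joining through short homologies that can also extend primers past lesions. Its level was 156.0, 141.1 and 142.4 CPM in HCT116 and 131.9, 141.0 and 123.2 CPM in HCT116oxR, so that the nearest libraries of the lines all but touched. The fall of 9.87% (-0.15 ± 0.05, adjusted p = 0.00627) had an interval from 3.79% to 15.6%. It did not pass without HCT116 replicate 1 (-0.10, adjusted p = 0.115) or without HCT116oxR replicate 3 (-0.10, adjusted p = 0.130). The ribosomal protein pseudogene RPL7AP11 lies with its 877 bases inside POLQ and had 71 to 106 counts in HCT116 and 77 to 105 in HCT116oxR (0.08 ± 0.18, adjusted p = 0.778). POLN, the gene of polymerase nu, had 22, 15 and 8 counts in HCT116 and 12, 15 and 12 in HCT116oxR, which overlapped. Its log2 fold change of -0.26 ± 0.46 (adjusted p = 0.686) had an interval from -1.18 to 0.65. HAUS3, a gene of the augmin complex of the mitotic spindle, lies with its whole span of 13773 bases inside POLN on chromosome 4 and had 369 to 522 and 497 to 600 counts (0.15 ± 0.09, adjusted p = 0.172). Of the pseudogenes inside POLN, LOC100419959 had 3 to 8 counts per library and COX6B1P5 had 0.

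RAD18 and PRIMPOL act before or beside the polymerases. RAD18, the ligase that starts the pathway at PCNA, had 95.6, 97.3 and 86.6 CPM in HCT116 and 99.6, 90.8 and 89.6 CPM in HCT116oxR. Its libraries overlapped, and the log2 fold change was 0.00 ± 0.06 (adjusted p = 0.971). The interval of the change ran from -7.13% to 8.15%. The snoRNA LOC124900561, inside RAD18, has no matched entry in the count table. PRIMPOL encodes an enzyme that lays down a new primer beyond a lesion instead of copying across it. It stood at 14.9, 17.2 and 14.2 CPM in HCT116 and at 15.3, 14.1 and 16.9 CPM in HCT116oxR, again overlapping. Its interval was wider, from -16.3% to 18.5% around a log2 fold change of -0.01 ± 0.13 (adjusted p = 0.975). PRIMPOL overlaps the kinetochore gene CENPU over 868 bases, and CENPU had a log2 fold change of 0.08 ± 0.08 (adjusted p = 0.423).

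Genes that work around these polymerases were described in 8 lists. Of 78 tested genes 11 were higher, 21 lower and 46 did not pass, or 14.1% higher and 26.9% lower beside 22.3% and 21.8% of all genes tested. The median log2 fold change of these genes was -0.058. Of the 28 genes that the naming rule takes from the lists, 15 overlap another annotated gene outside pseudogenes, so some of their reads could belong to a neighbour.

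PCNA itself, the clamp, was at -0.08 ± 0.04 (adjusted p = 0.0745). In its ubiquitination list 1 of 14 genes rose and 4 fell (median -0.050). UBE2A, which encodes one of the RAD6 enzymes, fell from 66.9 ± 3.90 to 55.5 ± 5.44 CPM (-0.27 ± 0.07, adjusted p = 3.94e-04), whereas its paralog UBE2B stood at 0.01 ± 0.07 (adjusted p = 0.959). The ratio of UBE2A to UBE2B counts was 1.43 ± 0.120 in HCT116 and 1.19 ± 0.207 in HCT116oxR (SD, n = 3), with libraries that overlapped. A difference between the paralogs was not tested. USP1, the protease that removes ubiquitin from PCNA, fell by 0.21 ± 0.05, and ATAD5, which unloads PCNA and recruits USP1, fell by 0.25 ± 0.05. The remaining call downward was USP7, also a protease acting on ubiquitin, at -0.10 ± 0.04 with libraries that overlapped. VCP, the segregase that extracts ubiquitinated proteins from chromatin, rose by 0.19 ± 0.03.

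Template switching is the error-free alternative at the same clamp, in which PCNA receives a ubiquitin chain. There 3 of 11 genes rose and 2 fell (median -0.013). UBE2N and UBE2V2, the conjugating pair of this branch, rose by 0.11 ± 0.04 and 0.16 ± 0.06, and the helicase gene RECQL rose by 0.30 ± 0.07. The libraries of UBE2V2 overlapped between the lines. The helicase gene FBXO18 fell by 0.14 ± 0.05. The chain-building ligases HLTF and SHPRH stood at -0.01 ± 0.04 and -0.05 ± 0.04, neither past the threshold.

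Among replicative polymerases and primase 6 of 12 genes fell and 1 rose (median -0.155). POLE3, a histone-fold subunit of polymerase epsilon, fell from 152.1 ± 1.46 to 108.7 ± 5.70 CPM (-0.49 ± 0.05, adjusted p = 1.21e-16). POLA2, a subunit of polymerase alpha, fell by 0.37 ± 0.06, and POLD1, the catalytic subunit of polymerase delta, by 0.29 ± 0.05. POLE2 rose by 0.27 ± 0.07. POLD2 and POLD3 belong to polymerase delta and also to the 4-subunit form of polymerase zeta, and were singled out for that after their values were seen. POLD3 fell by 0.29 ± 0.07 (adjusted p = 1.70e-04) and POLD2 by 0.12 ± 0.05 (adjusted p = 0.0332). The libraries of POLD2 overlapped, at 121.5 to 130.5 CPM in HCT116 and 106.2 to 122.7 CPM in HCT116oxR. By these calls REV3L, POLD2 and POLD3 fell and MAD2L2 rose among the 4 subunits of that form.

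Among clamp loader genes 2 of 8 rose and 3 fell (median -0.100). CHTF18 (-0.31 ± 0.05), RFC5 (-0.31 ± 0.05) and RFC3 (-0.29 ± 0.09) fell. DSCC1, the CHTF18 partner on chromosome 8, rose 1.74-fold from 45.2 ± 2.37 to 78.8 ± 5.98 CPM (0.80 ± 0.07, adjusted p = 6.64e-21), the largest change in these lists, and CHTF8 rose by 0.24 ± 0.05. Of the 4 tested genes from the lists on chromosome 8, DSCC1, NBN and UBE2V2 rose and POLB, whose few counts carry the same limit as those of POLK, was at 0.24 ± 0.27 (adjusted p = 0.510). The part of that chromosome in these rises was not tested here.

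For the partners of REV7 outside polymerase zeta, 2 of 8 genes rose and 1 fell (median 0.041). TP53BP1, which recruits shieldin to broken ends, fell by 0.26 ± 0.04. MAD2L1BP, whose product works with TRIP13 to open HORMA-domain proteins, rose from 19.6 ± 2.13 to 27.1 ± 2.89 CPM (0.47 ± 0.11, adjusted p = 1.03e-04), and the REV7-binding gene CHAMP1 rose by 0.14 ± 0.06. TRIP13 was at 0.04 ± 0.06 (adjusted p = 0.624). In the list around polymerase theta end joining 1 of 10 genes rose and 1 fell (median -0.024), namely NBN at 0.51 ± 0.05 and HUS1 at -0.25 ± 0.07, while PARP1 and LIG3 stood at -0.01 ± 0.03 and 0.00 ± 0.05. The libraries of HUS1 overlapped between the lines. Among the other repair and mitochondrial polymerases POLL alone passed of 5 tested, at -0.25 ± 0.07 (median -0.071). In the list of single-strand DNA binding and checkpoint genes 1 of 10 rose and 3 fell (median -0.095). CHEK1, the checkpoint kinase that acts at stalled forks, rose from 51.4 ± 1.66 to 80.1 ± 1.35 CPM (0.64 ± 0.06, adjusted p = 1.89e-16). RPA1 (-0.52 ± 0.07) and RPA2 (-0.30 ± 0.06), which encode subunits of the protein that coats single-stranded DNA, and TIMELESS (-0.12 ± 0.04) fell.

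**Figure D4:**
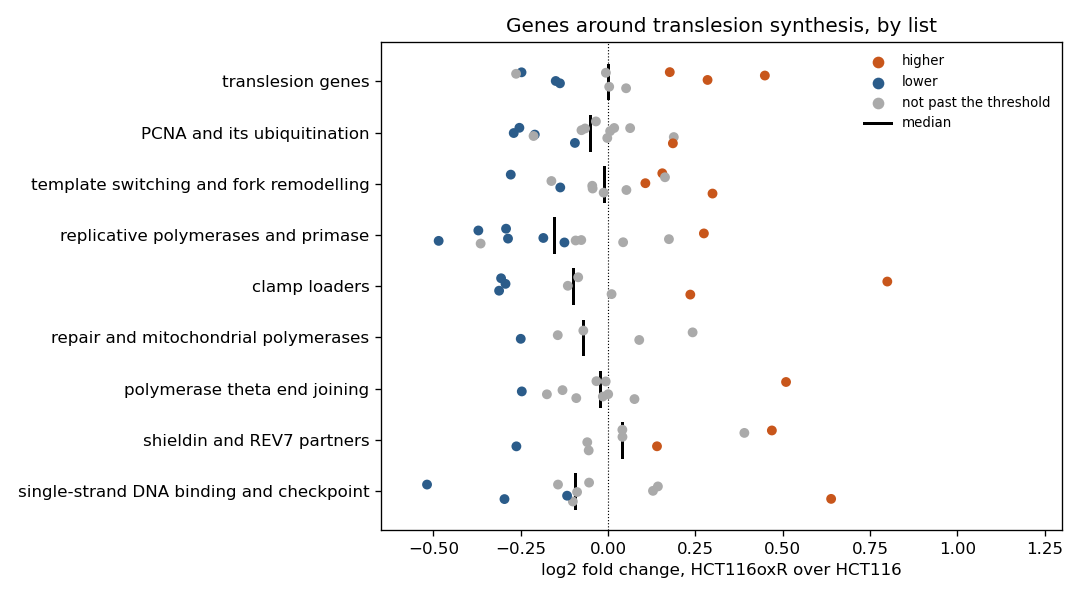
Log2 fold change of HCT116oxR over HCT116 for the 10 translesion genes and for each tested gene of 8 lists, with a black line at the median of each list and colours for the test. DSCC1 at 0.80 is the highest point and RPA1 at -0.52 the lowest.

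Whole chromosome segments can differ between a cell line and a line selected from it, so each gene was set beside the protein-coding genes whose starts lie within 5 Mb of its own. The medians of these neighbours ran from -0.025 for REV3L to 0.063 for POLI, under 0.3 in size on the log2 scale. That bound is larger than the change of each called gene but POLI, so it cannot set those changes apart from their neighbourhoods. POLI, at 0.45, lay above the upper quartile of its 29 neighbours (0.419), of which 11 were higher and 8 lower. MAD2L2, at 0.28, lay just above the upper quartile of its 68 neighbours (0.266), but below the upper quartiles within 2 Mb (0.302) and 10 Mb (0.313). REV3L, at -0.25, lay below the lower quartile of its 41 neighbours (-0.153). POLH, REV1 and POLQ lay between the quartiles of theirs, though within 2 Mb POLH, at 0.18, lay above the upper quartile (0.065). Of the medians within 2 Mb, that of REV1 was the largest in size, at -0.21 beside -0.14 for REV1 itself. Of those 24 neighbours 11 were lower (45.8%, beside 21.8% of all genes tested) and 4 higher. Neighbours are not replicates, and these positions carry no test. No such comparison was made for the list genes, among them RPA1 on chromosome 17 and POLE3 on chromosome 9.

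**Figure D5:**
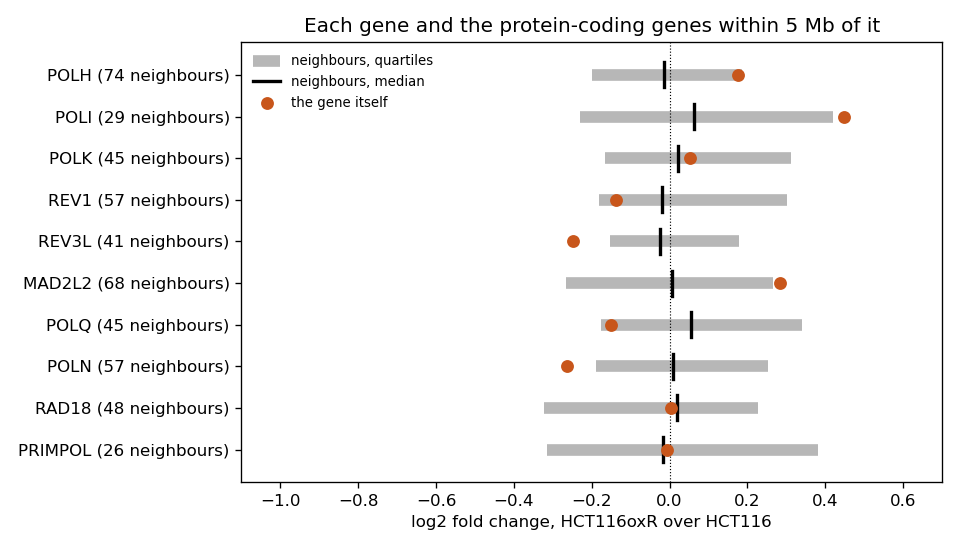
Log2 fold change of each gene (orange) beside the quartiles (grey bar) and median (black line) of tested protein-coding genes within 5 Mb. The medians lie between -0.025 and 0.063, and the points of POLI, MAD2L2, REV3L and POLN lie outside the bars.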

How the data were processed

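Total RNA was sequenced in 6 libraries, 3 of HCT116 and 3 of HCT116oxR, and the values used are raw counts per gene as deposited by the authors. Reads were aligned to GRCh38 with HISAT2, per the submitters' processing notes. The HISAT2 version, how reads were counted, on which annotation, with or without strand, and what was done with multiply aligned reads is not given in the sources used here. No other columns were in that table, and the small RNA counts were not used.

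The filterByExpr rule of edgeR, set to a minimum count of 10 and a minimum total of 15, kept 17511 genes. Lines were compared with edgeR 4.0.16 in R 4.3.3, with TMM factors and the robust quasi-likelihood F test, 2-sided, Benjamini-Hochberg adjusted over all genes tested, threshold 0.05. A log2 fold change is HCT116oxR relative to HCT116. Its SE was obtained by dividing its size by the root of F, and the 95% interval uses the test's degrees of freedom. Both therefore use the dispersion estimated between libraries. PCR copies could not be removed. The fit was tested on simulated data whose planted changes were all larger than those of the 10 genes, which leaves recovery at the smaller sizes untested. The closest libraries of a line differed by more than sampling noise (chi-square per degree of freedom at least 2.21), so each was kept as 1 replicate.

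The 10 genes and the 8 lists were chosen with earlier results of these data known. All 10 were named whatever their test, as were genes overlapping them. Of each list, up to 3 genes past the threshold in each direction were named by size of change, if their average log2 CPM was 0 or more, and 1 gene so chosen is not reported here. PCNA, UBE2B, USP7, HLTF, SHPRH, POLD2, POLD3, POLB, TRIP13, PARP1 and LIG3 were added for their roles after their values were seen. The NCBI gene table of GRCh38.p14 gave positions and names (51465 genes matched), and RefSeq promoter windows were found for all 10. Shares among the Y-family genes per length could not be computed, as transcript lengths were not used here.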

Additional observations from a re-analysis of the deposited data

How the results depend on the processing

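Each count and each of the 10 genes was recomputed under 15 alternatives: other scaling (DESeq2 size factors, upper quartile, library totals), the DESeq2 1.42.0 Wald test, no filter or a stricter one, no robust estimation, a replicate block, a test against a 1.2-fold change, and 6 settings leaving out a library. Scaling by library totals and the omission of MAD2L2 and POLN, which share the most bases with other annotated genes, were added after seeing the data. The remaining translesion genes overlap annotated genes too, over fewer bases, so this omission did not free the counts of overlap. The counts of genes higher and lower stayed within 1.5 times their main values except against a 1.2-fold change, a stricter question, where 1 translesion gene was higher and 0 lower, 4 list genes were higher and 3 lower, and 2038 genes of all tested were higher and 1699 lower. There POLI remained past the threshold (adjusted p = 0.0123), and over all its alternatives its log2 fold change ran from 0.39 to 0.51. POLH, MAD2L2 and REV3L lost their calls against a 1.2-fold change and under no other alternative. REV1 lost its call under 5 of 15 alternatives (lowest and highest adjusted p 0.0231 and 1.00), namely a test against a 1.2-fold change, scaling by library totals (-0.13, adjusted p = 0.0507) and the 3 given with its values above, and POLQ under 3, namely against a 1.2-fold change (adjusted p = 1.00) and without either of the libraries named with its values above. Of the genes that did not pass, POLK changed sign with the replicate block (-0.0123), PRIMPOL with upper quartile scaling (0.0191) and library totals (0.0023), and RAD18 with no filter (-0.0002). Leaving out single libraries moved POLK between -0.23 and 0.43, POLN between -0.56 and 0.061, RAD18 between -0.0479 and 0.0329 and PRIMPOL between -0.0724 and 0.0746, on both sides of 0 and never past the threshold. The replicate numbers did not pair the samples, since deviations of libraries with the same number correlated at -0.00705, -0.0134 and -0.0275, and the replicate block changed no call among the 10 genes (3 higher, 3 lower). With windows of 2 Mb or 10 Mb the neighbours' medians lay between -0.21 (REV1) and 0.115 (POLK), and for POLI, with 3 neighbours within 2 Mb, the median was -0.119. Shares of Y-family transcripts by length were not run. Few counts limit POLK and POLN, whose intervals span more than a 2-fold range.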

Other observations

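On chromosome 6, GTPBP2 lies between POLH and the REV7 regulator gene MAD2L1BP and overlaps both, so some of their reads could be shared. Within this stretch MAD2L1BP (0.47 ± 0.11, SE, edgeR adjusted p = 1.03e-04) and POLH (0.18 ± 0.05) rose in HCT116oxR, while GTPBP2 (-0.51 ± 0.05) and XPO5 on the other side of POLH (-0.20 ± 0.06, adjusted p = 0.00127) fell. Close to MAD2L2 on chromosome 1, FBXO44 (0.37 ± 0.08) and FBXO6 (0.42 ± 0.16), both genes of ubiquitin ligase subunits, rose, and AGTRAP (-0.35 ± 0.10) on the other side fell. These neighbours were picked out after their values were seen.

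RBBP8, which encodes the end resection factor CtIP of the polymerase theta list, had 5, 7 and 4 counts in HCT116 and 13, 13 and 8 in HCT116oxR and was not tested, being below the filter. As for POLK, a low level and reads lost in counting cannot be told apart. DNTT, the lymphoid terminal transferase gene, had 0 counts in every library.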
